A study of Mus musculus with 8 samples.

Results

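The genes described here are the 10 that carry the urea cycle of the mouse liver and its immediate supply. They are the enzymes of the cycle, Cps1, Otc, Ass1, Asl and Arg1, together with the activator-making enzyme Nags, the mitochondrial carriers Slc25a15 and Slc25a13, and the glutamate-handling enzymes Glud1 and Gls2. They were chosen by name, as every non-control probe annotated to one of the 10 symbols. All 10 were among the 23526 genes tested, through 13 probes, with Otc, Ass1 and Glud1 each read by a pair of probes.

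The liver makes urea to dispose of ammonia set free when amino acids are broken down. Carbamoyl phosphate and citrulline are made inside the mitochondrion, citrulline leaves for the cytosol, arginine is built there and split into urea and ornithine, and ornithine returns to the mitochondrion. In rodents the hepatic enzymes appear late in gestation and increase around birth, when glucagon and glucocorticoids act on their genes.

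The knockout group comprised 4 liver RNA samples from pups that had received from their mother a chromosome lacking the miR-379/miR-410 cluster of microRNAs. The wild-type group comprised 4 from littermates. Both groups were C57BL/6J, were delivered by caesarean at E19.5, late gestation, were kept warm, and were killed 4 hours later, without any other treatment named in the labels. The deletion is present in the whole animal, not in hepatocytes alone, and the RNA came from whole fragments of the large lobe, so fewer cells of a type and less RNA per cell cannot be told apart. The labels give each array as a separate replicate but do not name individual animals or their sex, and p-values measure the spread between these arrays.

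Total RNA was labelled with the dye Cy3 and hybridised to 1-colour Agilent arrays of 62976 spots, 1 labelled sample per array. Levels below are log2 processed signal relative to the 75th percentile of the same array, so that 0 marks that percentile and a difference of 1 is a doubling. Between 58.6% and 66.2% of spots per array were well above background. All 13 urea cycle probes were well above background and unsaturated on all 8 arrays. All arrays lay on 1 slide and were scanned together, with the knockout arrays in slide column 1 and the wild-type arrays in column 2, so an effect of the column cannot be told apart from genotype.

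The genotype was checked through Mirg, a non-coding RNA that hosts microRNAs of the cluster, which averaged -0.54 ± 0.33 in knockout and 2.16 ± 0.06 in wild-type (SD, n = 4 each), a difference of -2.70 (limma, adjusted p = 0.000326). The first and last members by which the cluster is named are shown from RefSeq (build GRCm38.p6, chromosome 12, plus strand), since they define the deletion; capitals mark the seed, bases 2 to 8.
mmu-miR-379-5p (chr12:109709065-109709085): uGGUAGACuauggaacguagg
mmu-miR-410-3p (chr12:109743764-109743784): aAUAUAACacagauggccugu
The seeds differ, and the exact limits of the deletion are not given in the sources used here.

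Several arrays stood apart. On knockout 1, 2 and 4, but on no wild-type array, the X-inactivation transcript Xist exceeded background. Fits with the Xist level therefore separate it from genotype mainly through knockout 3. The Y-linked gene Ddx3y was well above background on knockout 3 and 4 and on wild-type 1, 2 and 4. Knockout 4 thus carried both transcripts and wild-type 3 carried neither. Across all genes, the replicate 4 array of each group was the one best approximated by a weighted sum of the other arrays of its group, with a root-mean-square error of 0.204 for knockout 4 and 0.264 for wild-type 4, against 0.253 to 0.327 for the other knockout and 0.296 to 0.414 for the other wild-type arrays. Whether the replicate 4 samples are separate animals or pools was not tested, and n = 4 and the p-values take them as separate. The main results are therefore given with all 8 arrays and with the 6 arrays of replicates 1 to 3. Hepatocyte markers were well above background for 10 of 10 genes on every array, with a summed level of 12.48 to 12.52 in knockout and 12.36 to 12.61 in wild-type. Pancreatic acinar markers ran from 3.81 to 4.49 in knockout and from 4.45 to 7.12 in wild-type, highest on wild-type 3, with Pnlip not well above background on any array. Wild-type 1 was the lowest array for erythroid markers, which summed to 10.86 to 10.97 in knockout and 10.47 to 11.04 in wild-type. It was the highest for macrophage markers, at 7.69 to 7.88 in knockout and 7.65 to 8.10 in wild-type, and for endothelial markers, at 5.22 to 5.37 in knockout and 5.17 to 5.61 in wild-type. Kidney tubule markers summed to 2.95 to 3.11 in knockout and 2.18 to 3.34 in wild-type, and on none was Slc12a1 well above background. Intestinal markers summed to 2.37 to 2.44 in knockout and 2.39 to 2.93 in wild-type, with 4 of 8 not well above background. The part of these markers in the results was not tested.

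The urea cycle probes are 60 bases long. Those of 4 cycle enzymes are shown, 5′ to 3′ in the sense of the transcript, because they fix the sequence that each probe reads. The Otc probe shown is the one printed in 10 spots, while the Otc difference was tested through the other Otc probe, of 1 spot. Coordinates are in mm9, the build of the array headers. No base is capitalised, since no motif is at issue.
Cps1 (chr1:67276029-67276088, plus strand): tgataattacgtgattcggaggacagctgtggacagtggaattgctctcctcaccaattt
Otc (chrX:9853843-9877490, plus strand): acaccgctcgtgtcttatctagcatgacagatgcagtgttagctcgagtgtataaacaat
Asl (chr5:130487964-130488549, minus strand): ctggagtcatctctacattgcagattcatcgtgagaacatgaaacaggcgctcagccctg
Arg1 (chr10:24636194-24636253, minus strand): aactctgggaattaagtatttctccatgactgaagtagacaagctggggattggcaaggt
Each of the 4 probes has 1 of 3 forward reading frames without a stop. The genomic interval of the Otc probe covers 23648 bases and that of the Asl probe 586 bases, both longer than the probe, so these 2 probes span exon junctions and read spliced RNA.

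None of the 10 urea cycle genes passed the test between knockout and wild-type livers. With limma and Benjamini-Hochberg adjustment over all 23526 genes, 0 of 10 were called lower and 0 of 10 higher at an adjusted p under 0.05, against 0.179% of all genes called lower and 0.0383% called higher. At an unadjusted p under 0.05, 0 of 10 were reached, against 13.3% of all genes. Under some alternatives Cps1, Ass1, Otc, Nags or Slc25a15 had an unadjusted p under 0.05, Ass1 in 6 of 26, but none passed after adjustment. The mean was lower in knockout for 9 of 10, against 43.5% of all genes, and the median difference was -0.15, against 0.03 over all genes. The exception was Glud1. With 6 arrays 0 of 10 were called, against 0.0255% of all genes called lower, 9 of 10 had lower means and the median was -0.12. The differences ran from -0.31 for Otc to 0.10 for Glud1, and all 10 intervals at 95% included 0 with 8 and with 6 arrays. The genes share arrays, and those that share a direction are not replicates of one another. They were also chosen with earlier results of these data known.

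**Figure D1:**
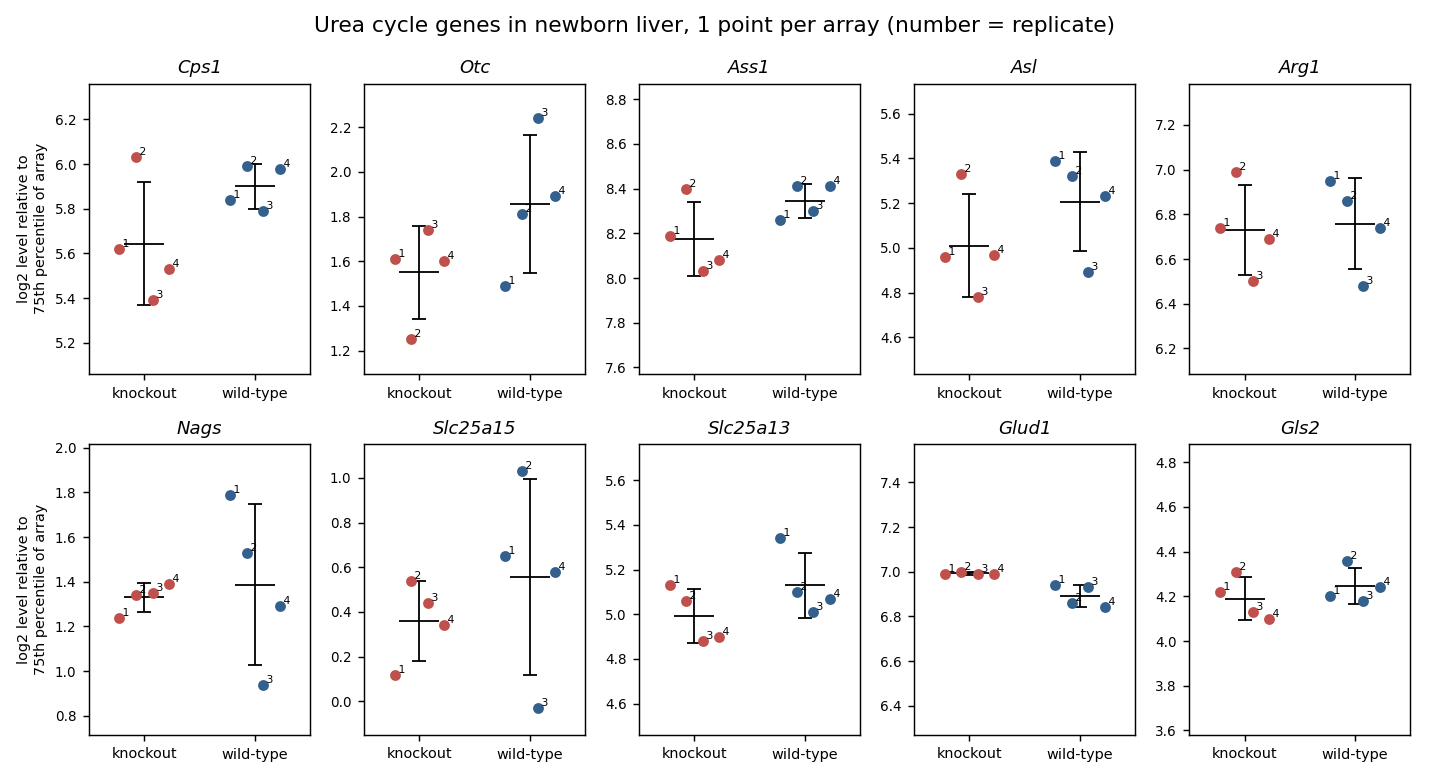
Level of each of the 10 urea cycle genes (y axis, log2 relative to the 75th percentile of the array; every panel spans the same height) on the 4 knockout arrays (red, left) and the 4 wild-type arrays (blue, right). Numbers are replicates and black bars show the mean ± SD; the groups overlap for every gene except Glud1.

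Cps1, carbamoyl phosphate synthetase 1, joins ammonia and bicarbonate in the first, mitochondrial step and is widely regarded as rate-limiting. Its level was 5.62, 6.03, 5.39 and 5.53 on knockout arrays 1 to 4, against 5.84, 5.99, 5.79 and 5.98 on wild-type arrays 1 to 4. Knockout 1, 3 and 4 lay below every wild-type array, while knockout 2 lay above every one. The means were 5.64 ± 0.27 in knockout and 5.90 ± 0.10 in wild-type (SD, n = 4 each). The difference was -0.26 (SE 0.13, 95% interval -0.56 to 0.05; limma, adjusted p = 0.441), or 0.837 of the wild-type level with an interval of 0.676 to 1.04. Without knockout 2 the difference was -0.39, with an unadjusted p of 0.00367 and an adjusted p of 0.137 from limma, so Cps1 still did not pass. Without knockout 3 and 4 the difference shrank to -0.08. Over 25 alternatives the adjusted p of Cps1 was at least 0.137 by limma. With 6 arrays the difference was -0.19 (limma, adjusted p = 0.8).

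Nags makes N-acetylglutamate, the activator that Cps1 requires. Its level was 1.24, 1.34, 1.35 and 1.39 on the knockout arrays, against 1.79, 1.53, 0.94 and 1.29 on the wild-type arrays. The knockout arrays lay close together inside the wide range of the wild-type arrays, which ran from wild-type 3 at the bottom to wild-type 1 at the top. The SD was 0.07 in knockout and 0.36 in wild-type (n = 4 each); whether the spreads differ was not tested. The difference in means was -0.06 (SE 0.16, 95% interval -0.43 to 0.32; limma, adjusted p = 0.897). Single arrays set its direction and size, which was 0.08 without wild-type 1 and -0.20 without wild-type 3. Both arrays stood apart in markers of other cells, the part of which was not tested.

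Otc, ornithine transcarbamylase, joins carbamoyl phosphate to ornithine to give citrulline, and its gene lies on the X chromosome. Its level by the single-spot probe was 1.61, 1.25, 1.74 and 1.60 on the knockout arrays, against 1.49, 1.81, 2.24 and 1.89 on the wild-type arrays. Knockout 2 was the lowest and wild-type 3 the highest of the 8, and wild-type 1 lay among the knockout arrays. The means were 1.55 ± 0.21 in knockout and 1.86 ± 0.31 in wild-type (SD, n = 4 each). This was the lowest of the 10 differences, -0.31 (SE 0.17, 95% interval -0.69 to 0.07; limma, adjusted p = 0.453), or 0.807 of the wild-type level with an interval of 0.619 to 1.05. It was -0.18 without wild-type 3, -0.32 with 6 arrays, and -0.08 with the Xist level in the fit (limma, adjusted p = 0.934); the part of Xist in the Otc values cannot be told apart from genotype on these few arrays.

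The junction-spanning Otc probe shown above is printed in 10 spots on each array, which gives the scatter between spots of 1 hybridisation but not that of labelling or hybridisation. Its mean level was 0.69, 0.28, 0.84 and 0.75 on the knockout arrays, against 0.61, 0.77, 1.40 and 1.10 on the wild-type arrays. It ran in the same way as the single-spot probe, again lowest on knockout 2 and highest on wild-type 3. The SD among the 10 spots was 0.046 to 0.077 per array, while the SD among arrays was 0.25 in knockout and 0.35 in wild-type. The highest array exceeded the lowest by 1.12, a 2.18-fold range. After centring each probe, the 2 Otc probes differed by a root-mean-square of 0.07 over the 8 arrays.

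**Figure D2:**
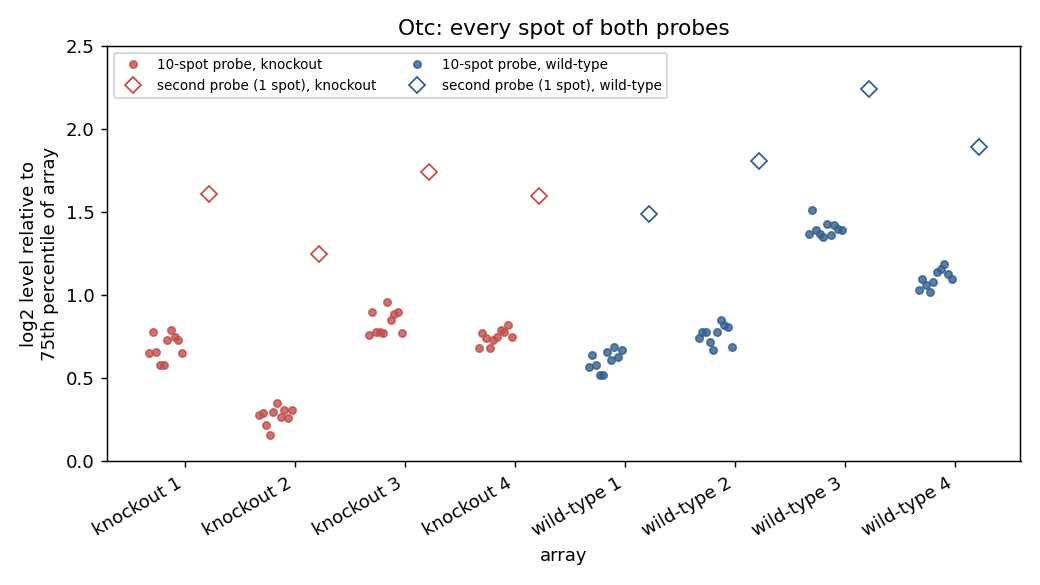
Otc level (y axis, log2 relative to the 75th percentile of the array) on each array, knockout in red at left and wild-type in blue at right, with the 10 spots of one probe as dots and the single spot of the second probe as diamonds. The dots of an array lie close together, with an SD of at most 0.077, and both probes are lowest on knockout 2 and highest on wild-type 3.

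Slc25a15 exchanges cytosolic ornithine for mitochondrial citrulline and so links the compartments of the cycle. Its level was 0.12, 0.54, 0.44 and 0.34 on the knockout arrays, against 0.65, 1.03, -0.03 and 0.58 on the wild-type arrays. Wild-type 1, 2 and 4 lay above every knockout array and wild-type 3 lay below every one. Its SD over the 8 arrays, 0.33, was the highest of the 10 genes. The difference was -0.19 (SE 0.21, 95% interval -0.67 to 0.28; limma, adjusted p = 0.694). Single arrays set its size, which was -0.39 without wild-type 3 and -0.04 without wild-type 2.

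Ass1, argininosuccinate synthetase, joins citrulline to aspartate in the cytosol. Its level was 8.19, 8.40, 8.03 and 8.08 on the knockout arrays, against 8.26, 8.41, 8.30 and 8.41 on the wild-type arrays. Knockout 1, 3 and 4 lay below every wild-type array, as for Cps1, and knockout 2 lay among them. The means were 8.17 ± 0.16 in knockout and 8.34 ± 0.08 in wild-type (SD, n = 4 each), a difference of -0.17 (SE 0.09, 95% interval -0.39 to 0.05; limma, adjusted p = 0.462). The second probe had 7.20, 7.37, 6.93 and 6.97 in knockout, against 7.17, 7.34, 7.13 and 7.36 in wild-type, a difference of -0.13. The 2 Ass1 probes differed by a root-mean-square of 0.05 after centring.

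Asl, argininosuccinate lyase, releases arginine and fumarate. Its level was 4.96, 5.33, 4.78 and 4.97 on the knockout arrays, against 5.39, 5.32, 4.89 and 5.23 on the wild-type arrays. Knockout 2 and wild-type 3 were again the arrays outside the run of their groups. The difference was -0.19 (SE 0.15, 95% interval -0.53 to 0.14; limma, adjusted p = 0.571).

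Arg1, liver arginase, splits arginine into urea and ornithine. Its level was 6.74, 6.99, 6.50 and 6.69 on the knockout arrays, against 6.95, 6.86, 6.48 and 6.74 on the wild-type arrays. The groups covered nearly the same range, with knockout 3 and wild-type 3 at the bottom. The difference was -0.03 (SE 0.13, 95% interval -0.33 to 0.28; limma, adjusted p = 0.94), and its sign was not stable: without knockout 3 the difference was 0.05.

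Slc25a13, also called citrin, sends aspartate to the cytosol in exchange for glutamate. Its level was 5.13, 5.06, 4.88 and 4.90 on the knockout arrays, against 5.34, 5.10, 5.01 and 5.07 on the wild-type arrays. Knockout 3 and 4 lay below every wild-type array, and wild-type 1 lay above all the others. The difference was -0.14 (SE 0.10, 95% interval -0.36 to 0.09; limma, adjusted p = 0.556).

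Glud1, glutamate dehydrogenase, frees ammonia from glutamate within the mitochondrion, and was the only one of the 10 with a higher mean in knockout. Its level was 6.99, 7.00, 6.99 and 6.99 on the knockout arrays, against 6.94, 6.86, 6.93 and 6.84 on the wild-type arrays. Every knockout array lay above every wild-type array, an arrangement in the same direction that 4.73% of all genes showed. The difference was 0.10 (SE 0.06, 95% interval -0.04 to 0.23; limma, adjusted p = 0.504), or 1.07 times the wild-type level with an interval of 0.973 to 1.18. The second Glud1 probe gave 6.63, 6.66, 6.67 and 6.68 in knockout, against 6.58, 6.59, 6.61 and 6.56 in wild-type. Its groups did not overlap either and its difference was 0.08. The difference was also 0.08 with 6 arrays (limma, adjusted p = 0.837). It was 0.04 with quantile normalization (limma, adjusted p = 0.792) and 0.06 from the value table that the authors deposited. Both probes share the scaling of their arrays.

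Gls2, the glutaminase of liver mitochondria, frees ammonia from glutamine. Its level was 4.22, 4.31, 4.13 and 4.10 on the knockout arrays, against 4.20, 4.36, 4.18 and 4.24 on the wild-type arrays. The groups overlapped over most of their range. The difference was -0.06 (SE 0.08, 95% interval -0.23 to 0.12; limma, adjusted p = 0.768).

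**Figure D3:**
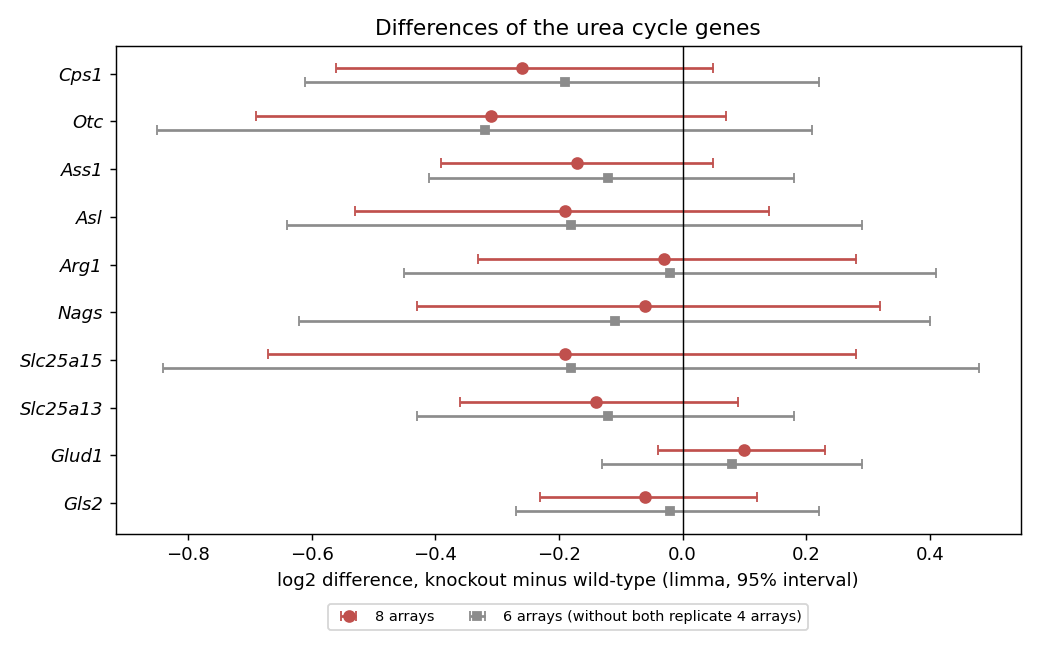
Log2 difference, knockout minus wild-type, of each urea cycle gene (x axis) with its 95% interval from limma, for 8 arrays (red circles) and 6 arrays (grey squares). The intervals of both sets of arrays include 0 for each gene; the narrowest with 8 arrays is that of Glud1, from -0.04 to 0.23.

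The median half-width of the 95% interval was 0.31 for the urea cycle genes and 0.26 over all genes tested. The Arg1 interval ran from 0.795 to 1.21 times the wild-type level and the Gls2 interval from 0.853 to 1.09 times. Those of Otc, Slc25a15, Cps1 and Asl reached down to 0.619, 0.629, 0.676 and 0.694 times. With 6 arrays the Arg1 interval widened to 0.734 to 1.33 times. For each gene, changes beyond its bounds lie outside the interval and changes within them are not excluded.

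Among the knockout arrays, knockout 2 was highest for 7 of 10 genes, against 32.6% of all genes, and knockout 3 lowest for 6, against 32.0%. Glud1 is in both counts although its knockout arrays were nearly equal. Among the wild-type arrays, wild-type 3 was lowest for 7 of 10, against 23.4% of all genes. The 10 genes share these arrays, and no test was made of the counts. The median deviation from each gene's mean over the 8 arrays was -0.08, 0.09, -0.13 and -0.12 on knockout 1 to 4, against 0.13, 0.15, -0.04 and 0.07 on wild-type 1 to 4. Otc ran against this pattern at both ends. Glud1 varied least, with an SD of 0.06 over the 8 arrays. Knockout 4 differed from the weighted sum of the other knockout arrays by at most 0.09 for the 10 genes. Wild-type 4 differed from that of the other wild-type arrays by 0 for Glud1 and up to 0.19 for Asl. For Cps1 and Ass1 it differed by 0.17 and 0.15, more than the wild-type SDs of 0.10 and 0.08.

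**Figure D4:**
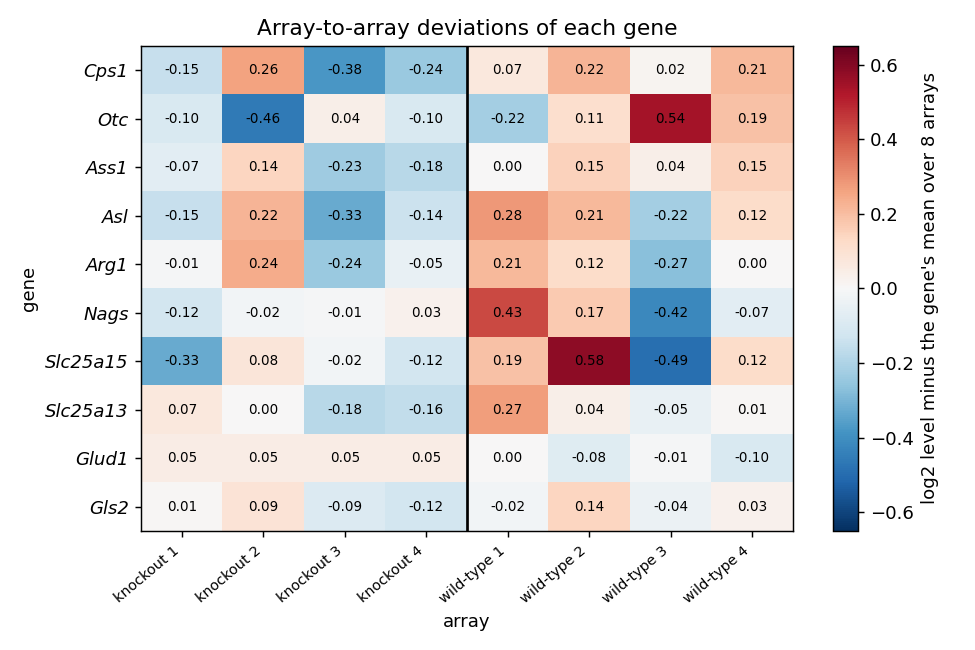
Deviation of each urea cycle gene (rows) on each array (columns; knockout left of the line, wild-type right) from the gene's mean over the 8 arrays, in log2 units, with red above and blue below the mean. Knockout 3 is lowest of its group for 6 of 10 genes and wild-type 3 for 7 of 10, while Otc is lowest on knockout 2 and highest on wild-type 3.

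The genes nearest in profile were sought by the root-mean-square difference of centred levels over the 8 arrays. For Cps1 they were Herc6 at 0.059, Prmt3 at 0.063 and Mrps2 at 0.066. Herc6 had -1.72, -1.35, -1.87 and -1.67 on the knockout arrays, against -1.43, -1.20, -1.46 and -1.30 on the wild-type arrays, with knockout 2 again set apart from the other knockout arrays. For Slc25a15, the gene that varied most, they were Slc4a4 at 0.137, Zmat1 at 0.140 and Slc39a9 at 0.140. These are the closest among all genes tested, and the measure is a description of 8 arrays.

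Genes that feed or surround the cycle were examined as lists, made with earlier results of these data known. Of 17 measured genes of glutamate and aspartate supply, 0 passed in either direction by limma. An unadjusted p under 0.05 was found for 4, against 13.3% of all genes. Means were lower for 12, against 43.5% of all genes, and higher for 5, with a median difference of -0.12. Slc25a18, a mitochondrial glutamate carrier, averaged -3.70 ± 0.27 in knockout and -4.25 ± 0.16 in wild-type, a difference of 0.55 (limma, adjusted p = 0.168). Its probe was dim, with processed signals of 38.6 to 56.3 in knockout and 28 to 30.6 in wild-type. Slc25a10, the mitochondrial dicarboxylate carrier, had a difference of -0.31 (limma, adjusted p = 0.257). Sirt3, a mitochondrial deacetylase, also had -0.31 (limma, adjusted p = 0.265).

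Of 18 measured genes of arginine and ornithine metabolism, 0 passed by limma. An unadjusted p under 0.05 was found for 6, against 13.3% of all genes. Means were lower for 7, against 43.5% of all genes, and higher for 11, with a median difference of 0.09. Gamt, which makes creatine, averaged 5.31 ± 0.17 in knockout and 4.97 ± 0.09 in wild-type, a difference of 0.33 (limma, adjusted p = 0.213). Prodh2, which degrades hydroxyproline, had a difference of -0.22 and Ddah2, of the family that hydrolyses methylated arginines, one of -0.26. Both had groups that did not overlap, lower in knockout, as did 4.33% of all genes.

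Of 15 measured plasma membrane carriers of nitrogen compounds, 0 passed by limma. An unadjusted p under 0.05 was found for 2, against 13.3% of all genes. Means were lower for 9, against 43.5% of all genes, and higher for 6, with a median of -0.03. Aqp9, a channel for glycerol and urea, averaged -2.14 ± 0.33 in knockout and -1.45 ± 0.17 in wild-type, a difference of -0.69 (limma, adjusted p = 0.147). Slc7a2, a cationic amino acid transporter, had a difference of -0.41 and Slc38a3, a glutamine transporter, one of -0.21.

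Of 15 measured genes of amino acid breakdown, not all of which release ammonia themselves, 0 passed by limma. Lower means in knockout were found for 13, against 43.5% of all genes, an unadjusted p under 0.05 for 6, against 13.3%, and groups that did not overlap, lower in knockout, for 5, against 4.33%. Their median difference was -0.24. The list was made with earlier results of these data known, so its counts are a description and no test of the list. Between 0 and 2 of the 15 passed over the 25 alternatives. Tat, tyrosine aminotransferase, had 4.88, 5.39, 4.63 and 4.84 on the knockout arrays, against 6.13, 6.23, 5.80 and 5.93 on the wild-type arrays. Its groups were well separated, with a difference of -1.09 (SE 0.17), and it just missed the threshold (limma, adjusted p = 0.0591 with 8 arrays and 0.484 with 6). Tdo2, tryptophan dioxygenase, averaged -4.34 ± 0.31 in knockout and -2.83 ± 0.57 in wild-type, a difference of -1.52 (limma, adjusted p = 0.0821). Its probe was dim, with processed signals of 24.2 to 40.2 in knockout and 45.3 to 107 in wild-type, though well above background on every array. Agxt, alanine-glyoxylate aminotransferase, had a difference of -0.61 (limma, adjusted p = 0.2). As in Cps1, knockout 2 had the highest value of the knockout arrays in Tat, but there it stayed below every wild-type array.

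Of 14 regulators known to act on urea cycle genes, 0 passed by limma. Means were lower for 6, against 43.5% of all genes, and higher for 8, with a median of 0.03. An unadjusted p under 0.05 was found for 1, against 13.3% of all genes. That one was Cebpa, a liver transcription factor that activates Cps1, at 3.35, 3.24, 3.15 and 3.22 on the knockout arrays, against 2.64, 2.92, 3.01 and 2.97 on the wild-type arrays. Its groups did not overlap, higher in knockout, as did 4.73% of all genes. Its difference was 0.35 (limma, adjusted p = 0.187). Creb1 and Crtc2, which carry the cyclic AMP response, had differences of 0.16 and -0.15.

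The urea cycle is a periportal function in the adult lobule, so zonal genes were set beside it. Of 8 periportal genes, 0 passed by limma, with means lower for 6, against 43.5% of all genes, and higher for 2. The median difference was -0.11. An unadjusted p under 0.05 was found for 3, against 13.3% of all genes. These were Pck1, the gluconeogenic carboxykinase, at -0.43 (limma, adjusted p = 0.156), Sds, serine dehydratase, at -0.72, and Cyp2f2, a cytochrome, at -0.77. Of 8 measured pericentral genes 1 passed, lower in knockout, against 0.179% of all genes. Cyp2e1, an ethanol-metabolising cytochrome, fell to 2.72, 3.49, 3.18 and 3.23 on the knockout arrays, against 7.26, 6.24, 5.94 and 6.05 on the wild-type arrays, a difference of -3.22 (SE 0.29; limma, adjusted p = 0.00502). With 6 arrays its difference was -3.35 and it no longer passed (limma, adjusted p = 0.105), nor did it without knockout 3 and 4, with Xist in the fit or with the replicate number as a block. The other 7 pericentral genes did not pass, and none of them had an unadjusted p under 0.05. Across the pericentral list, means were lower for 6, against 43.5% of all genes, and higher for 2. Its median difference was -0.23, and -0.03 without wild-type 1, so the fall of Cyp2e1 was not shared by the list as a whole.

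**Figure D5:**
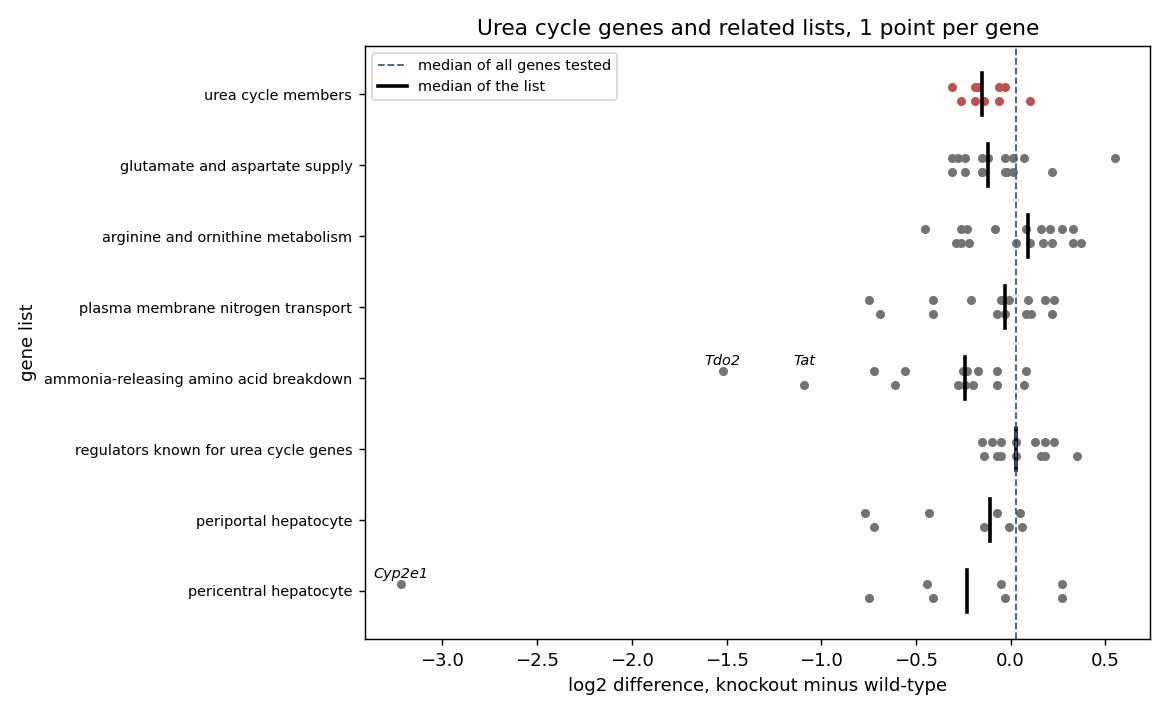
Log2 difference, knockout minus wild-type (x axis), of each measured gene in the urea cycle set and in 7 related lists (rows), with the list median as a black bar and the median of all 23526 genes as a dashed line. The urea cycle genes lie between -0.31 and 0.10. Cyp2e1 at -3.22 is the one listed gene that passed the test with 8 arrays. The row labelled ammonia-releasing also holds amino acid breakdown genes that release no ammonia themselves.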

How the data were processed

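RNA from fragments of the large liver lobe, 4 knockout and 4 wild-type samples, was measured on 1-colour Agilent arrays. The authors deposited scanner files with linear intensity columns. The submitters' processing notes name Agilent Feature Extraction 10.10 and limma, without their roles, and probe positions are in mm9, per the file headers. The deposited value table holds log2 values of the median signal (27084 probes; array medians 8.84 to 8.86, no centring by gene), with its normalization not given in the sources used here, and served as an alternative.

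Control spots and outlier-flagged spots were dropped, spots of a probe were averaged, and log2 processed signal was taken relative to each array's 75th percentile over the spots of non-control probes. Probes well above background on at least 4 arrays were kept (33754), and a gene was read by its probe with the highest mean level. This left 23526 genes. They were named by RefSeq accession or synonym, or otherwise by the gene name on the array, whether or not RefSeq lists it. Means were compared with limma 3.58.1 in R 4.3.3 (lmFit, eBayes) with Benjamini-Hochberg adjustment over all genes, at an adjusted p under 0.05. The script was tested on simulated independent arrays with changes larger than any difference of the urea cycle genes. That test does not cover differences of their size. The number of arrays limits the precision.

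The text names all 10 genes with each of their probes, and of each related list the called genes or otherwise the 3 with the smallest p. The members and lists were chosen with earlier results of these data known. Same-numbered arrays of the 2 groups did not deviate together (correlations -0.11, -0.03, -0.01 and 0.07), so the main fit had no block. Alternatives covered scaling, background correction, filters, covariates and arrays left out.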

Additional observations from a re-analysis of the deposited data

Results flagged for a closer look

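Of 82 groups of 4 arrays, 4 held an array far from the other 3 relative to the range of its group, where chance flags about 1 in 20 groups. None of the 10 urea cycle genes was among them. Rhbg, an ammonia transporter of pericentral hepatocytes, stood at 1.05 on wild-type 1, while the other wild-type arrays lay between -0.77 and -0.57. The median of the pericentral list, taken over each gene's deviation from its mean over the 8 arrays, stood at 0.68 on wild-type 1, while the other wild-type arrays lay between -0.03 and 0.01. For the regulators of urea cycle genes the same median stood at -0.07 on knockout 2, while the other knockout arrays lay between 0.06 and 0.09. For arginine and ornithine metabolism it stood at 0 on knockout 1 and at -0.05 on each of the other knockout arrays.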

How the results depend on the processing

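The number of urea cycle genes called was 0 under all 25 alternatives. Of 253 refits of the 10 differences, 246 kept their sign, 7 changed it and 0 passed the threshold, with a lowest adjusted p of 0.137 (limma). Arg1 was 0.11 without knockout 3 and 4, 0.05 without knockout 3, 0.04 without wild-type 1 and 0.01 without wild-type 2. Gls2 was 0.02 without knockout 3 and 4. Nags was 0.02 with Ddx3y in the fit and 0.08 without wild-type 1, and -0.33 without wild-type 3 and 4. With Xist in the fit Cps1 was -0.57 and Ass1 -0.36. That fit rests mainly on knockout 3, since Xist exceeded background on knockout arrays alone. Without knockout 3 and 4 Cps1 was -0.08 and Ass1 -0.05, and without wild-type 3 and 4 Otc was -0.10. Leaving out each array in turn gave -0.39 to -0.17 for Cps1, -0.43 to -0.18 for Otc, -0.25 to -0.12 for Ass1, -0.30 to -0.12 for Asl, -0.12 to 0.05 for Arg1, -0.20 to 0.08 for Nags, -0.39 to -0.04 for Slc25a15, -0.18 to -0.07 for Slc25a13, 0.08 to 0.11 for Glud1 and -0.09 to -0.02 for Gls2. Over all genes, 42 were called lower and 9 higher with the reported settings. The counts lower and higher were 66 and 14 with quantile normalization, 121 and 14 with normexp, 127 and 24 with normexp and quantile normalization, 122 and 20 from the deposited value table, 123 and 21 from that table less its 75th percentile, 19 and 0 with no filter, 119 and 30 with a trended robust prior, 15 and 3 with Xist in the fit, 6 and 0 with 6 arrays, 11 and 2 without wild-type 3 and 4, and 9 and 3 without knockout 3 and 4. Ddx3y in the fit gave 78 lower and median scaling 14 higher. Leaving out 1 array gave 14 to 66 lower and 0 to 24 higher. With the replicate number as a block, 17 were called lower and 2 higher, and 0 urea cycle genes; the numbers do not pair the samples. Taking the 75th percentile over probes instead of spots was chosen after seeing the data and called 0 urea cycle genes. Over the 25 alternatives 0 to 2 genes were called in the amino acid breakdown list, 0 to 1 in the pericentral list (0 in 4 alternatives), 0 to 1 in the periportal list (1 in 2) and 0 to 1 among plasma membrane carriers (1 with Ddx3y in the fit), with 0 in the other 3 lists. An unadjusted p under 0.05 was reached by Ass1 in 6 alternatives (quantile normalization, normexp with it, both forms of the deposited table, Xist in the fit, without knockout 2), by Cps1 in 3, by Slc25a15 in 2 and by Otc and Nags in 1 each. The causes were not tested.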
